A study of Mus musculus with 75 samples.

Results

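Paclitaxel was compared with its saline vehicle in calf muscle (gastrocnemius, built largely of fast fibres) of BALB/c mice bearing C26 tumours. C26 is a colon carcinoma line of mouse origin that is used as a model of cancer wasting. Libraries were chosen by title and treatment label, and 28 of the 73 libraries with a group entered the comparison: 13 from paclitaxel-treated hosts (7 female, 6 male) and 15 from saline-treated hosts (7 female, 8 male). Both arms carried C26 tumours from injections on both sides of the body, both received their injections from day 12, and muscle was taken at day 25. Paclitaxel was given at 75% of the maximum tolerated dose in 2 cycles of 2 injections a week. The age of the mice is not legible in the series description, no transgene or gene deletion is named, and nothing in the labels ties a library to a cage, litter or tumour weight. Tumour-free mice given phosphate-buffered saline (PBS) and saline (7 female, 8 male libraries), and tumour hosts given 5-fluorouracil (8 and 8) or cisplatin (6 and 8), served as reference levels. A female library whose title names saline and whose treatment label names 5-fluorouracil was left out.

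Paclitaxel binds beta-tubulin and stabilises microtubules, which arrests dividing cells in mitosis and disturbs transport along the microtubules of axons and of non-dividing cells such as muscle fibres. In rodents it also acts on Toll-like receptor 4, and it is exported by the multidrug transporters of the Abcb1 family. In muscle wasted by a C26 tumour, interleukin-6 and glucocorticoids are known to act through STAT3 and FoxO factors to raise acute-phase genes, ubiquitin ligases, proteasome subunits and autophagy genes. NRF2, encoded by Nfe2l2, is the transcription factor that switches on antioxidant and detoxifying enzymes.

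The libraries carried muscle RNA: the muscle creatine kinase Ckm lay from 14.34 to 16.11 (median 14.74) on the log2 scale in saline hosts and from 14.58 to 16.11 (median 14.83) in paclitaxel hosts. Recovered totals were 11.4 to 40.5 M (mega) estimated counts per library (median 21.5), with means of 20.9 ± 2.33 (SD, n = 13) in paclitaxel and 23.6 ± 7.79 (n = 15) in saline hosts. Expression depended on transcript GC content to a different degree in each library. The GC slope of a library, the change of its log2 values per standard deviation of transcript GC content, averaged 0.143 ± 0.275 (SD, n = 13) with paclitaxel and -0.0523 ± 0.150 (n = 15) with saline, a difference of 0.197 within sex (permutation p = 0.0258, two-sided, 0.116 adjusted over 9 tests of library measures). In males the means were 0.261 ± 0.258 and -0.105 ± 0.0582, a difference of 0.366 (exact permutation p = 0.003, adjusted 0.027), and in females 0.0420 ± 0.265 and 0.00745 ± 0.202 (difference 0.0345, exact permutation p = 0.922). A gap between 0.0565 and 0.321 set 7 libraries of high slope apart: female paclitaxel replicates 6 and 7, male paclitaxel replicates 1, 2, 3 and 5, and female saline replicate 7. In those 7 the mitochondrially encoded transcripts took at most 2.62% of expression, against at least 4.67% in the other 21. By group that share was 6.30 ± 4.25% (SD, n = 13) with paclitaxel and 8.33 ± 3.53% (n = 15) with saline (difference -1.99 within sex, permutation p = 0.193). Called genes are therefore given as fitted on the 28 libraries and, beside that, with the slope as a covariate in these or in all 73 libraries, or without the 7 libraries. A value printed alone is as fitted, and what part the slope has in a result beyond those values was not tested. Cell numbers and RNA per cell cannot be told apart in whole-muscle RNA.

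**Figure D1:**
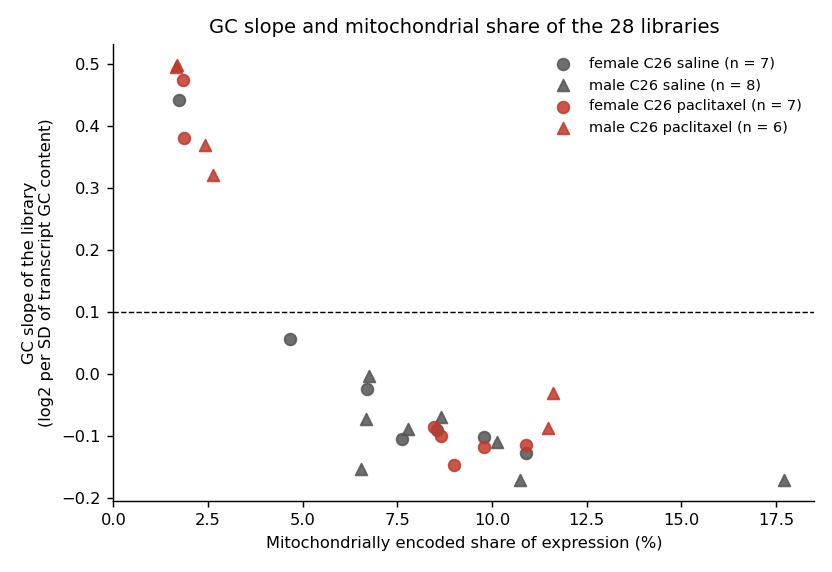
GC slope of each of the 28 libraries (y axis, log2 units per standard deviation of transcript GC content) against the share of expression from mitochondrially encoded genes (x axis, percent), each point a library, with colour for treatment and shape for sex. 6 of the 13 paclitaxel libraries and 1 of the 15 saline libraries lie above the dashed line at 0.1, all of them at mitochondrial shares of at most 2.62%.

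With paclitaxel, muscle of tumour hosts held less RNA of the antioxidant regulator Nfe2l2, of its targets Nqo1 and Prdx1, of the drug transporter Abcb1b and of the phosphodiesterase Pde4b, and more of the neuromuscular junction enzyme Ache and the thick-filament protein Mybph. Of 13856 genes, 175 rose and 174 fell (349, or 2.52%, limma, Benjamini-Hochberg adjusted p under 0.05), and the smallest adjusted p was 0.0326. The share called was 1.26% in each direction, and with the GC slope as a covariate 0 of the calls remained. The 349 calls lay close to the threshold: 4118 genes had an unadjusted p under 0.05, and 2125 an adjusted p under 0.10. Leaving out 1 library took the count to anything from 0 to 3272. It was 0 in 13 of the 28 fits, namely without female saline replicates 1, 3 and 6, male saline replicates 1, 2, 3, 5 and 6, female paclitaxel replicates 6 and 7, and male paclitaxel replicates 1, 4 and 5. It was 97, 20 and 157 without female saline replicates 2, 4 and 5, 25 without male saline replicate 7 and 18 without male paclitaxel replicate 2. It was 3272 without female saline replicate 7, the saline library of high slope, 905, 884, 944 and 1019 without female paclitaxel replicates 1 to 4, 745 without male saline replicate 4, and 666 without male paclitaxel replicate 3 or 6.

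The calls followed GC content. Genes called higher had a median transcript GC content of 57.5%, those called lower 46.5%, and all genes 51.1%. In the GC decile of genes with the lowest content (median 41.3%) the median difference was -0.39, with 1 gene called higher and 39 lower. In the decile with the highest content (median 59.8%) it was 0.29, with 72 called higher and 1 lower. By sex, the lowest decile had a median of -0.03 in females and -0.74 in males, and the highest 0.11 and 0.48. Across 13791 genes, which are not independent replicates, the difference correlated with GC content at r = 0.557, at 0.113 in females, at 0.632 in males and at -0.0663 without the 7 libraries of high slope. With the slope as a covariate the medians of the end deciles were 0.01 and 0.03, and limma called 0 genes (2155 at an unadjusted p under 0.05, 1003 or 7.24% higher and 1152 or 8.31% lower). Without the 7 libraries 4 genes passed (0.0289%), each at adjusted p = 0.0461: the transferrin receptor Tfrc (2.12) and the collagen VI chain Col6a6 (0.98) were higher, and the glucose transport regulator Tbc1d4 (-0.72) and the acute-phase protein Saa1 (-3.03) lower, with 2604 genes at an unadjusted p under 0.05 (1204 or 8.69% higher and 1400 or 10.1% lower).

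**Figure D2:**
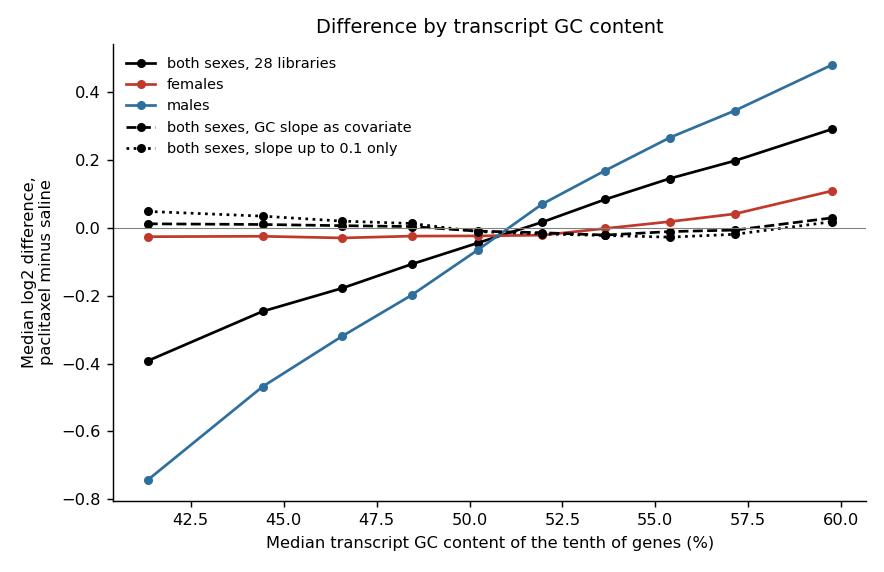
Median log2 difference, paclitaxel minus saline, of the genes in each decile of transcript GC content (x axis, from lowest to highest), for the sexes together, each sex, and the fits that take the GC slope into account. The line for males runs from -0.74 to 0.48, that for females from -0.03 to 0.11, and those with the slope as a covariate or without the 7 libraries stay near 0.

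All 349 genes kept their sign with the slope as a covariate and without the 7 libraries, with an unadjusted p under 0.05 in 349 and 322 of them. The 349 were chosen by p in these same libraries, so kept signs and unadjusted p values are no independent support. By adjusted p, 0 of them stayed called with the covariate and 1 without the 7 libraries. Their median absolute difference was 0.548 as fitted, 0.330 with the covariate and 0.372 without the 7 libraries. To estimate the spread and the slope from more libraries, all 73 were also fitted as 10 group means with the slope as a covariate, a setting added after the data had been seen. There 532 genes were higher and 683 lower (8.77% of genes, 3.84% and 4.93%), with median GC contents of 51.2% and 51.7%. All 73 were also fitted without those of high slope, here any slope above 0.1. That left out 6 paclitaxel and 1 saline library, 4 PBS and 2 cisplatin libraries, and 6 libraries given 5-fluorouracil. Across the 73 the limit falls in no wide gap, with male 5-fluorouracil replicates 6 and 8 at 0.0745 and 0.122. This setting gave 564 higher and 704 lower (9.15%, or 4.07% and 5.08%), and 823 genes were called in both settings. Of the 349, 269 were called in the first of these settings, 241 in the second and 228 in both, 109 of them higher and 119 lower. The settings share the same paclitaxel and saline libraries and are no independent support for each other. In what follows, "slope-adjusted" stands for the fit of 73 libraries with the covariate, and differences are log2 values with paclitaxel minus saline, on the deposited scale, which understates the change of low genes. Counts of list members stand beside 1.26% of all genes called in each direction as fitted. Slope-adjusted, the shares over all genes are 3.84% higher and 4.93% lower.

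Nfe2l2, the gene of NRF2 itself, lay from 5.37 to 6.66 (median 5.83) in saline hosts and from 4.82 to 6.01 (median 5.09) in paclitaxel hosts, where 10 of 13 libraries lay below the lowest saline library and all 13 below the saline mean of their sex. The difference was -0.63 ± 0.12 (SE, adjusted p = 0.0326), -0.60 with the slope as a covariate, -0.69 without the 7 libraries and -0.62 in the slope-adjusted fit (adjusted p = 0.00138). The call held in 15 of 28 fits that left out 1 library. Nqo1, a quinone reductase and classic NRF2 target, lay from 3.62 to 4.67 (median 4.29) with saline and from 3.33 to 4.21 (median 3.73) with paclitaxel, below the saline mean of its sex in 13 of 13 libraries (-0.48 ± 0.10, adjusted p = 0.0379, -0.45 with the covariate). The peroxiredoxin Prdx1, which reduces hydrogen peroxide, lay from 5.55 to 7.91 (median 7.09) and from 5.36 to 6.84 (median 6.61). The groups of Prdx1 overlapped across most of their range, and all 13 treated libraries lay below the mean of their sex (-0.78 ± 0.19, adjusted p = 0.0461). Its difference shrank to -0.36 with the covariate. Gpx3, the secreted glutathione peroxidase, lay from 8.51 to 9.87 (median 9.14) and from 7.41 to 9.44 (median 8.53) (-0.68 ± 0.17, adjusted p = 0.0461), and without the 7 libraries the difference was -0.97.

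Of 26 measured genes of the NRF2 and antioxidant list these 4 fell and 0 rose, beside 1.26% of all genes called lower, and the list's median was -0.10 against -0.01 over all genes. The slope-adjusted fit called 12 of the 26 lower and 0 higher, beside 4.93% and 3.84% of all genes, with a median of -0.22. A further member, chosen after its value was seen, is catalase (Cat), which degrades peroxide and did not pass in the 28 libraries (-0.41, adjusted p = 0.0541). Others chosen in the same way are the thioredoxin gene Txn1 (-0.37, adjusted p = 0.00604) and the sulfiredoxin gene Srxn1 (-0.61, adjusted p = 0.0188), both lower in the slope-adjusted fit. NRF2 binds antioxidant response elements, whose core is TGACNNNGC. That core, or its reverse complement GCNNNGTCA, occurred in 8 of the 27 RefSeq promoters found for 20 of the 26 genes (29.6%), and in 4071 of 32851 promoters in all (12.4%), each window running from 250 bases before to 50 after the gene start. A match is a description of the letters and no evidence of binding. Among the 4 genes that fell, Nfe2l2 and Prdx1 held a match, and their windows are shown because those genes carry the comparison, with the 9 bases of the core in capitals and 10 bases on each side (RefSeq, GRCm38.p6, 5′ to 3′ on the gene's strand).
Nfe2l2, chr2:75704885-75704913, minus strand, core from position -240: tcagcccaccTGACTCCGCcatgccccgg
Prdx1, chr4:116685456-116685484, plus strand, core from position -133: cagggaaagcGCTGAGTCAtcccccgtag
Both cores lie upstream of the annotated gene start.

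**Figure D3:**
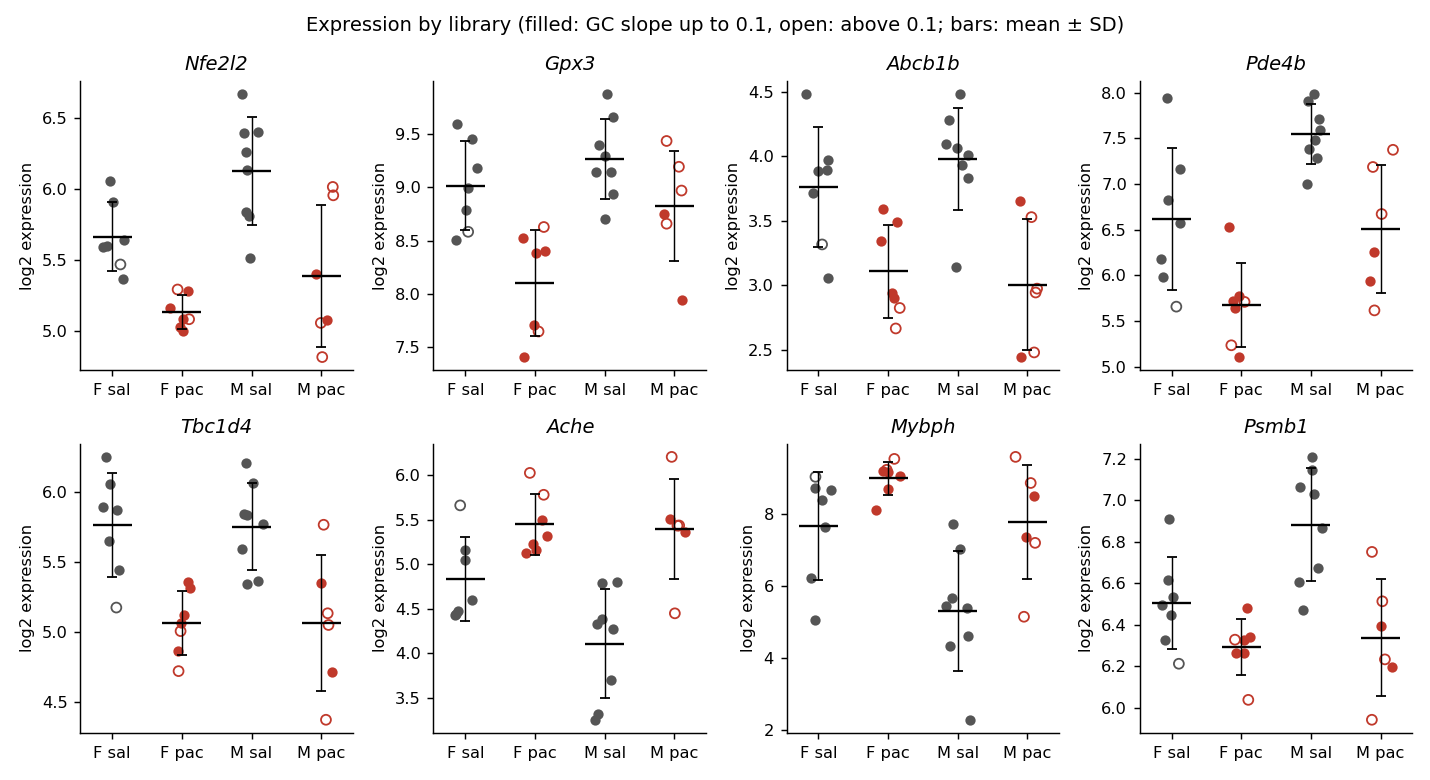
Log2 expression of 8 genes (y axis), each point a library, in female (F) and male (M) saline (sal) and paclitaxel (pac) hosts, with means and SD as bars and open symbols for libraries of GC slope above 0.1. Nfe2l2 lies lower and Ache higher with paclitaxel, at medians of 5.09 and 5.32 in the filled paclitaxel symbols against 5.87 and 4.44 in the filled saline symbols.

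Ache, acetylcholinesterase, which clears transmitter from the neuromuscular junction, rose. It lay from 3.26 to 5.66 (median 4.45) in saline hosts and from 4.45 to 6.21 (median 5.44) in paclitaxel hosts, above the saline mean of its sex in all 13 treated libraries and above the highest saline library in 3. The difference was 0.95 ± 0.19 (adjusted p = 0.0326), 0.70 with the covariate, 0.85 without the 7 libraries and 0.74 in the slope-adjusted fit (adjusted p = 0.00178). Hdac4, the deacetylase that muscle induces after denervation, rose by 0.70 ± 0.17 (adjusted p = 0.0461, 0.58 slope-adjusted). Of 29 measured denervation-responsive genes these 2 rose and 0 fell, beside 1.26% of all genes in each direction. Slope-adjusted, 3 were higher and 0 lower, beside 3.84% and 4.93% of all genes. The list does not record which way denervation moves each gene, so these counts give no direction of denervation. A part of denervation in them was not tested. The fetal and denervation markers Ncam1 (0.31, adjusted p = 0.0516), Chrna1 (0.05, adjusted p = 0.822), Myog (-0.13, adjusted p = 0.879) and Runx1 (-0.39, adjusted p = 0.178) did not pass. None of the 17 measured Schwann cell and nerve markers passed, with a median of 0.07. Paclitaxel is known for its toxicity to peripheral nerve. The summed nerve markers took from 0.00951% to 0.0722% (median 0.0220%) of expression with saline and from 0.0119% to 0.0414% (median 0.0253%) with paclitaxel.

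Of 16 measured tubulins, which include the beta-tubulins that paclitaxel binds, 0 rose and 0 fell, beside 1.26% of all genes called in each direction. The median difference of the 16 was 0.12, or -0.05 with the slope as a covariate. Tubb6, a beta-tubulin raised in damaged muscle, lay from 3.56 to 4.94 (median 4.42) with saline and from 3.39 to 5.18 (median 4.23) with paclitaxel (0.03 ± 0.18, adjusted p = 0.930). With the libraries of high slope left out of all 73, Tubb6 was called lower (-0.50, adjusted p = 0.0369), and all 7 paclitaxel libraries of low slope lay below the median of the saline libraries of low slope. Tubb2b was at 0.52 (adjusted p = 0.149), Tuba1a at 0.20 (0.265) and Tuba4a at 0.02 (0.940). The widely expressed beta-tubulin Tubb4b, at -0.30 ± 0.17 (adjusted p = 0.225) in the 28 libraries, was called lower in the slope-adjusted fit (-0.57, adjusted p = 0.00197), as was Tuba1c (-0.48, adjusted p = 0.0433). Of 32 microtubule-associated and severing proteins 1 rose, the microtubule-binding Map7d1 (0.53 ± 0.14, adjusted p = 0.0482, 0.27 with the covariate). Map4 (-0.11, adjusted p = 0.282), the destabilising protein Stmn1 (-0.17, 0.567) and the tubulin deacetylase Hdac6 (0.04, 0.713) did not pass.

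Among 36 measured kinesins, dyneins and their adaptors 2 rose. Klc2, a light chain that links kinesin-1 to cargo, lay from 6.00 to 7.15 (median 6.14) with saline and from 6.34 to 7.25 (median 6.53) with paclitaxel, above the saline mean of its sex in 13 of 13 libraries (0.44 ± 0.12, adjusted p = 0.0470), but its difference was 0.21 in the slope-adjusted fit (adjusted p = 0.0122). Dynll2, a dynein light chain, rose by 0.60 ± 0.17 (adjusted p = 0.0494) and was at 0.58 slope-adjusted. Slope-adjusted, 3 of the 36 were called higher and 4 lower, beside 3.84% and 4.93% of all genes. Of 27 genes of tubulin folding and modification, 0 passed. Of 23 measured genes of mitosis and proliferation, the process the drug blocks in dividing cells, 0 passed, with a median of 0.00 and Mki67 at -0.09 ± 0.54 (adjusted p = 0.923). Of 30 measured p53 targets 0 passed, with a median of -0.14 and the cell cycle inhibitor Cdkn1a at -0.55 ± 0.32 (adjusted p = 0.234).

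Of 9 measured genes of paclitaxel transport and metabolism, Abcb1b fell. This transporter, one of the mouse copies of the multidrug pump that exports paclitaxel, lay from 3.05 to 4.48 (median 3.93) in saline hosts and from 2.44 to 3.65 (median 2.94) in paclitaxel hosts, below the saline mean of its sex in all 13 treated libraries. The difference was -0.81 ± 0.16 (adjusted p = 0.0326), -0.66 with the covariate, -0.71 without the 7 libraries and -0.62 slope-adjusted (adjusted p = 0.00397). The other copy, Abcb1a, was at -0.09 (adjusted p = 0.668). The copies are similar in sequence, so the division of reads between them is uncertain. Of 18 measured genes of Toll-like receptor signalling, a list that holds Tlr4 and also other Toll-like receptors, 0 passed, with a median of -0.17. Tlr4 itself was at -0.79 ± 0.25 (adjusted p = 0.0616). The list's median was 0.03 with the covariate, 0.06 without the 7 libraries and -0.02 slope-adjusted, so its sign was not kept.

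Of 33 measured proteasome subunits 4 fell and 0 rose, beside 1.26% of all genes called in each direction, with a median of -0.25, which was -0.21 with the covariate and -0.23 without the 7 libraries. Slope-adjusted, 22 of 33 were called lower and 0 higher, beside 4.93% of all genes called lower and 3.84% higher. In that fit 33 of 33 differences were below 0, beside 7019 of 13856 over all genes. In females alone 0 of the 33 passed, beside 0 of all 13856 genes, and the list's median was -0.12. Psmb1, a subunit of the catalytic core ring, lay from 6.21 to 7.21 (median 6.62) with saline and from 5.94 to 6.75 (median 6.33) with paclitaxel, below the saline mean of its sex in 13 of 13 libraries (-0.38 ± 0.09, adjusted p = 0.0470), and at -0.34 slope-adjusted (adjusted p = 0.00197). Of the outer core ring Psma1 fell by 0.75 and of the regulatory particle Psmd1 by 0.42 and the ATPase Psmc1 by 0.39 (adjusted p = 0.0470, 0.0485 and 0.0494), and in the slope-adjusted fit they were at -0.40, -0.26 and -0.26. Usp14, the deubiquitinase of the proteasome, fell by 0.55 (adjusted p = 0.0473) and was at -0.26 slope-adjusted.

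Trim63 and Fbxo32, ubiquitin ligases that feed the proteasome in wasting muscle, did not pass in the 28 libraries. Trim63 (MuRF1) lay from 7.95 to 11.53 (median 9.92) with saline and from 7.02 to 12.02 (median 8.25) with paclitaxel (-0.91 ± 0.36, adjusted p = 0.104), and Fbxo32 (atrogin-1) lay from 7.49 to 11.42 (median 9.93) and from 6.60 to 11.08 (median 8.90) (-0.88 ± 0.34, adjusted p = 0.0962). For both genes the arms overlapped over most of their range. In the slope-adjusted fit Trim63 was at -1.09 (adjusted p = 0.0365) and Fbxo32 at -0.86 (0.0658). Of 24 ubiquitin ligase and atrophy genes 1 rose, the chaperone-linked ligase Stub1 (0.41, adjusted p = 0.0494, 0.17 with the covariate), and 1 fell, Usp14. Of 30 FoxO and glucocorticoid targets 1 fell, with a median of -0.31 (slope-adjusted: 1 higher, 5 lower, beside 3.84% and 4.93% of all genes). That gene is Bnip3, a receptor for mitophagy and also a member of the autophagy list, which lay from 6.63 to 8.96 (median 8.16) and from 6.46 to 8.31 (median 7.18) (-0.82 ± 0.19, adjusted p = 0.0458, -0.58 slope-adjusted). The second of 32 autophagy and lysosome genes to fall was Ctsl, the lysosomal protease cathepsin L, from 6.15 to 8.89 (median 6.98) with saline and from 5.97 to 7.96 (median 6.32) with paclitaxel (-0.87 ± 0.24, adjusted p = 0.0485, -0.71 with the covariate). After slope adjustment 9 of the 32 were lower and 0 higher, beside 4.93% and 3.84% of all genes. Among the 9 was Map1lc3b, the autophagosome protein (-0.67, adjusted p = 0.00138, and -0.44 with adjusted p = 0.0859 in the 28).

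Of 22 unfolded protein response genes 2 fell, the secreted stress factor Manf (-0.56 ± 0.15, adjusted p = 0.0470, -0.34 with the covariate) and the chaperone calreticulin, Calr (-0.26 ± 0.07, adjusted p = 0.0485, -0.20 with the covariate). The slope-adjusted fit called 5 lower and 0 higher, beside 4.93% and 3.84% of all genes. The transcription factor Xbp1 was among the 5 (-0.41, adjusted p = 0.00427). Of 26 heat shock genes 1 rose, the muscle small heat shock protein Hspb2 (0.73, adjusted p = 0.0485, 0.31 slope-adjusted), and 0 fell. In the slope-adjusted fit 5 heat shock genes were lower and 1 higher, beside 4.93% and 3.84% of all genes. Of 35 splicing factor genes 4 fell, beside 1.26% of all genes, and in males alone 24, beside 14.8%. In the GC decile with a median of 44.4%, 547 of 1379 genes were called lower in males. In the slope-adjusted fit 6 of the 35 were lower and 0 higher with the sexes together, beside 4.93% and 3.84% of all genes. In males alone that fit called 3 of the 35 lower, beside 1.87% of all genes. Srsf7, an SR protein, lay from 4.93 to 5.78 (median 5.32) with saline and from 4.66 to 5.06 (median 4.87) with paclitaxel, below the saline mean of its sex in 13 of 13 libraries (-0.41 ± 0.08, adjusted p = 0.0326, -0.34 slope-adjusted). For the splicing list the median moved from -0.29 as fitted to -0.05 with the slope as a covariate, and the list's median GC content was 45.29%.

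The acute-phase genes that a C26 tumour raises had lower medians with paclitaxel, with 1 call in the 28 libraries. Of 31 IL-6/STAT3 and acute-phase genes 1 fell, the shared receptor subunit Il6st (-0.35 ± 0.09, adjusted p = 0.0470, -0.24 with the covariate), and the median was -0.35, or -0.55 with the covariate and -0.68 without the 7 libraries. Slope-adjusted, 10 of 31 were lower and 0 higher, beside 4.93% and 3.84% of all genes. Lcn2, which binds bacterial siderophores, lay from 1.13 to 8.74 (median 5.56) with saline and from -0.07 to 6.03 (median 2.75) with paclitaxel (-1.91 ± 0.57, adjusted p = 0.0541), and Saa1 from -2.03 to 1.84 (median -0.05) and from -5.46 to 1.96 (median -1.96) (-1.77 ± 0.53, adjusted p = 0.0555). Serpina3n, a protease inhibitor, was at -1.002 ± 0.31 (adjusted p = 0.0581), the metallothionein Mt2 at -1.34 ± 0.47 (0.0780), Socs3, the feedback inhibitor of STAT3, at -1.05 ± 0.46 (0.133) and Stat3 at -0.35 ± 0.18 (0.184). These genes varied widely within each arm, over several log2 units. In the slope-adjusted fit Lcn2 (-1.90, adjusted p = 0.00925), Saa1 (-2.11, 0.0110), Serpina3n (-1.01, 0.0349), Mt2 (-1.70, 0.0134), Socs3 (-1.27, 0.0324) and Stat3 (-0.53, 0.0106) were lower.

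Of 20 NF-kB and inflammation genes 1 rose, Tnfaip3, the ubiquitin-editing inhibitor of NF-kB. It lay from -0.21 to 1.28 (median 0.67) with saline and from -0.15 to 2.36 (median 1.65) with paclitaxel, above the highest saline library in 9 of 13 (0.77 ± 0.20, adjusted p = 0.0470, 0.81 with the covariate). Slope-adjusted, it was at 0.84 (adjusted p = 0.00970). Of 9 measured neutrophil markers the decoy receptor Il1r2 fell (-1.03, adjusted p = 0.0485) and 0 rose, while slope-adjusted 0 of the 9 passed, with Il1r2 at -0.94 (adjusted p = 0.0748). The calgranulin S100a9 was at -0.67 ± 0.34 (adjusted p = 0.188). The summed neutrophil markers took from 0.000557% to 0.00424% (median 0.00265%) of expression with saline and from 0.000555% to 0.00340% (median 0.00131%) with paclitaxel. Of 22 measured macrophage markers 0 passed, and their sum ran from 0.0170% to 0.0449% (median 0.0295%) and from 0.0174% to 0.0581% (median 0.0265%). T and NK cell markers were not analysed here, since none of the 17 listed was among the genes tested.

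Of 6 measured genes on the B cell list 3 rose, and these 3 encode MHC class II antigen presentation, which macrophages and dendritic cells also carry. Cd74, the invariant chain, lay from 2.96 to 4.65 (median 3.93) with saline and from 4.01 to 5.32 (median 4.54) with paclitaxel (0.68 ± 0.14, adjusted p = 0.0333). H2-Ab1 rose by 0.82 ± 0.20 and H2-Eb1 by 0.65 ± 0.17 (adjusted p = 0.0461 and 0.0470). With the covariate they were at 0.49 and 0.41. In the slope-adjusted fit 0 of the 6 passed, with Cd74 at 0.46 (adjusted p = 0.0961), H2-Ab1 at 0.34 (0.283) and H2-Eb1 at 0.28 (0.359). The sum of the 6 ran from 0.00219% to 0.00557% (median 0.00443%) and from 0.00384% to 0.0114% (median 0.00664%). The defining B cell genes Ighm (0.86, adjusted p = 0.268) and Cd79b (-0.17, 0.837) did not pass, and whether cell numbers moved with the class II genes was not tested.

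Of 38 collagen and matrix genes 4 rose and 0 fell, beside 1.26% of all genes in each direction. Their median was 0.18, or 0.28 with the covariate. Slope-adjusted, 2 were higher and 0 lower, beside 3.84% and 4.93% of all genes. Col5a1, a chain of the collagen that nucleates fibrils, lay from 4.13 to 5.45 (median 4.85) with saline and from 4.29 to 6.05 (median 5.64) with paclitaxel, above the highest saline library in 9 of 13 (0.67 ± 0.15, adjusted p = 0.0458, 0.56 slope-adjusted with adjusted p = 0.00919). Its partner Col5a3 rose by 0.60 ± 0.14 (adjusted p = 0.0460) and was also called in the slope-adjusted fit (0.45, adjusted p = 0.0235). The basement membrane collagens Col18a1 (0.49) and Col15a1 (0.45) rose in the 28 libraries (adjusted p = 0.0470 and 0.0470), and slope-adjusted they were at 0.30 (0.106) and 0.34 (0.0972). The main fibrillar chain Col1a1 did not pass (0.80 ± 0.28, adjusted p = 0.0766). Of 18 fibroblast markers 0 passed, and their sum ran from 0.135% to 0.289% (median 0.164%) with saline and from 0.129% to 0.391% (median 0.223%) with paclitaxel. Of 13 smooth muscle and pericyte markers 3 rose, beside 1.26% of all genes. These were the receptors Notch3 (0.47) and Pdgfrb (0.32) and the proteoglycan Cspg4 (0.48), with adjusted p = 0.0458, 0.0470 and 0.0470. With the covariate they were at 0.31, 0.23 and 0.28, and in the slope-adjusted fit Notch3 passed (0.29, adjusted p = 0.0112) while Pdgfrb (0.20, 0.0952) and Cspg4 (0.22, 0.122) did not. The sum of those markers ran from 0.407% to 0.746% (median 0.583%) and from 0.361% to 0.917% (median 0.638%), and its part in the matrix calls was not tested. The desmin gene Des and Notch3 are on this list and on the satellite cell list. The satellite cell sum had medians of 0.546% with saline and 0.583% with paclitaxel. The sum is therefore no measure of smooth muscle cells and pericytes alone.

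Of 30 glycolysis and glycogen genes 2 rose and 1 fell. The glycolytic enzyme Tpi1 rose by 0.54 ± 0.15 (adjusted p = 0.0485) and was at 0.32 with the covariate. Eno1, the glycolytic enolase, stands for 2 entries that share the symbol, of which the list counts 1. The entry ENSMUSG00000063524 rose by 0.50 ± 0.12 (adjusted p = 0.0460, 0.39 with the covariate). The entry ENSMUSG00000059040, which the reference annotation names Eno1b and marks as a retrogene, rose by 0.77 ± 0.21 (adjusted p = 0.0485, 0.31 with the covariate). Near-identical copies share reads, so the division between the entries is uncertain. Ugp2, which makes UDP-glucose for glycogen, lay from 7.06 to 10.66 (median 9.10) with saline and from 6.50 to 8.72 (median 8.33) with paclitaxel (-1.18 ± 0.30, adjusted p = 0.0470), and was at -0.50 with the covariate. Slope-adjusted, 7 of the 30 were higher and 1 lower, beside 3.84% and 4.93% of all genes. Of 30 genes of fatty acid uptake and oxidation 2 fell, the mitochondrial hydratase Echs1 (-0.42 ± 0.10, adjusted p = 0.0458) and the dehydrogenase Acadl (-0.54 ± 0.14, adjusted p = 0.0470), and both were also lower in the slope-adjusted fit (-0.44 and -0.45, adjusted p = 0.00486 and 0.0412). The 77 nuclear genes of oxidative phosphorylation had 0 calls and a median of 0.19 as fitted, but -0.02 with the covariate. The 13 mitochondrially encoded genes had 0 calls and a median of -0.63 as fitted, against 0.23 with the covariate and 0.39 without the 7 libraries, so their direction turned with the slope. The 19 fast fibre genes had 0 calls, and their calcium store protein Casq1 lay from 8.56 to 11.51 (median 10.03) with saline and from 9.46 to 11.98 (median 11.13) with paclitaxel (0.83 ± 0.26, adjusted p = 0.0588).

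**Figure D4:**
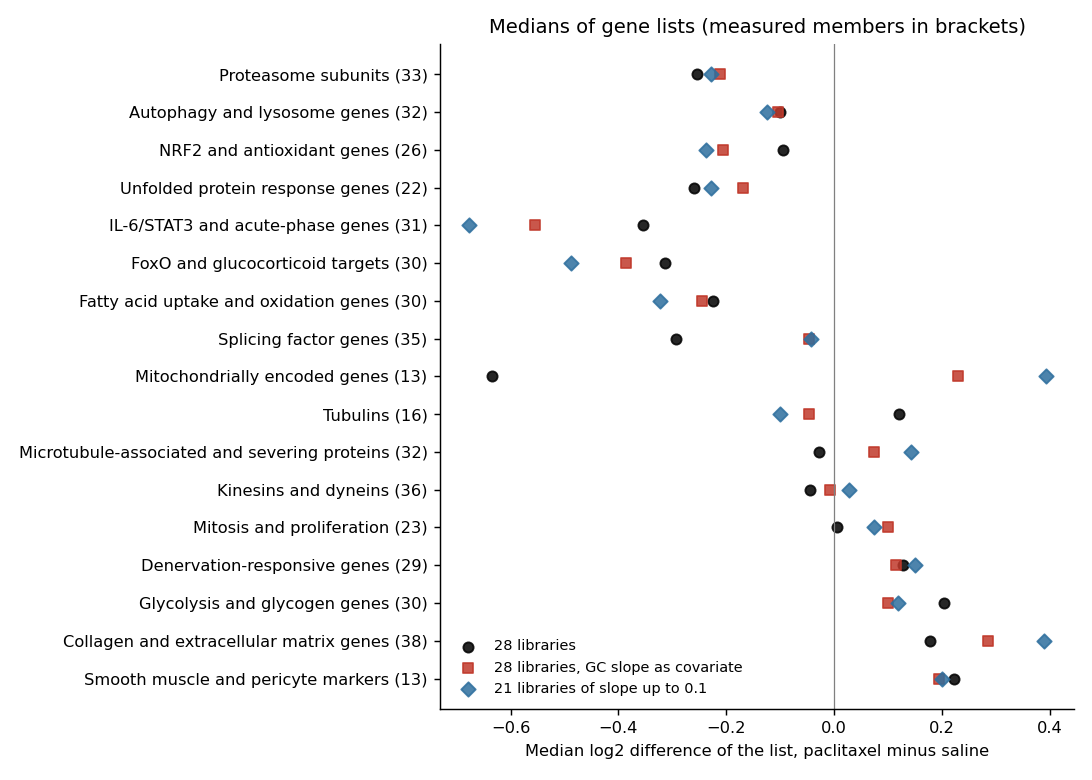
Median log2 difference, paclitaxel minus saline, of the measured members of each gene list (x axis) in the 28 libraries as fitted, after adding the GC slope as a covariate, or leaving the 7 libraries of high slope out. Proteasome subunits and acute-phase genes lie below 0 in each fit, and mitochondrially encoded genes change side.

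Mybph showed the largest rise of the called genes that averaged 1 or more on the log2 scale; it encodes a myosin-binding protein of the thick filament. It lay from 2.29 to 9.04 (median 6.21) with saline and from 5.15 to 9.59 (median 8.87) with paclitaxel, above the highest saline library in 6 of 13 (1.89 ± 0.49, adjusted p = 0.0470), with 1.60 under the covariate and 1.85 without the 7 libraries. Dusp29, a muscle dual-specificity phosphatase, lay from 0.61 to 4.69 (median 2.41) and from 2.37 to 5.80 (median 4.18) (1.59 ± 0.40, adjusted p = 0.0470, 1.39 with the covariate), and the cell adhesion protein gene Mdga1 from -0.98 to 3.98 (median 1.52) and from 0.73 to 4.38 (median 3.17) (1.67 ± 0.44, adjusted p = 0.0470, 1.32 with the covariate). Saline hosts spread over more than 4 log2 units for each of these 3 genes. The other 7 of the 10 largest rises were those of Mpp3 (1.21), Mafa (1.11), the creatine-synthesis enzyme Gamt (1.09), the synthetase scaffold Aimp2 (1.08), the secreted factor Angptl2 (1.07), the collagen chain Col11a2 (1.07) and Lingo3 (1.05). Slope-adjusted, those 7 were at 1.15, 0.91, 0.93, 0.87, 0.97, 0.86 and 0.83, in the same order. Col11a2 lay above the saline mean of its sex in all 13 treated libraries.

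Among the 10 largest falls beside Ugp2 and Ctsl was Pde4b, which degrades cyclic AMP. It lay from 5.66 to 7.98 (median 7.29) with saline and from 5.11 to 7.38 (median 5.78) with paclitaxel, below the saline mean of its sex in 13 of 13 libraries (-0.99 ± 0.20, adjusted p = 0.0326, -1.18 without the 7 libraries and -0.97 slope-adjusted). Falls of Rif1 (-1.10), a factor of replication timing, Rbm12b1 (-0.99), Resf1 (-0.96), Mospd1 (-0.92), Nol8 (-0.89), the glycerophosphocholine phosphodiesterase Gpcpd1 (-0.88) and Eif3j2 (-0.87) complete the 10. Slope-adjusted, Rif1 was at -0.50, Rbm12b1 at -0.61, Resf1 at -0.44, Mospd1 at -0.37, Nol8 at -0.41, Gpcpd1 at -0.33 and Eif3j2 at -0.30, and of these Resf1 (adjusted p = 0.0744) and Gpcpd1 (0.0658) did not pass. Eif3j2 has a near-identical copy that can share its reads. Tbc1d4, which gates insulin-driven glucose uptake, lay from 5.17 to 6.26 (median 5.84) with saline and from 4.37 to 5.77 (median 5.07) with paclitaxel, with -0.70 ± 0.13 as fitted (adjusted p = 0.0326) and -0.72 without the 7 libraries.

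By sex, limma called 0 genes in females (592 at an unadjusted p under 0.05, smallest adjusted p 0.836) and 3444 in males (24.9%, 1390 or 10% higher and 2054 or 14.8% lower). The male calls went with GC content: their median content was 56.7% among those higher and 44.4% among those lower, and 719 of the 2054 lower ones lay in the decile of lowest content. With the slope as a covariate 0 male genes passed (1626 at an unadjusted p under 0.05), and without the libraries of high slope, which leaves 2 male paclitaxel libraries, 1 passed. In the slope-adjusted fit 482 passed in males (3.48%, with 1.61% of genes higher and 1.87% lower) and 0 in females, and 249 of the 3444 were among the 482. Leaving out male paclitaxel replicates 1, 2 and 5 gave 972, 1835 and 1 male calls, and male saline replicates 1 and 6 gave 2168 and 2274. The difference between the sexes itself, the male minus the female effect, passed for 0 of 13856 genes as fitted (2239 at an unadjusted p under 0.05), with the covariate and in the slope-adjusted fit, so no gene is shown to respond differently by sex in those fits. Quality weights gave 3713 interaction calls, and the fit without the libraries of high slope 1, the pseudogene Trmt112-ps2.

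Genes with the smallest p in females were Nqo1 (-0.59), the glutathione-degrading enzyme Chac1 (-1.50), Gpx3 (-0.91), Tbc1d4 (-0.70) and Col5a3 (0.77), none of which passed. The same genes were at -0.36, -0.01, -0.44, -0.69 and 0.42 in males. In males the smallest p values were those of the complex I assembly factor Ndufaf4 (-0.83, adjusted p = 0.00783), Zbtb26 (-1.52), the Integrator subunit Ints12 (-0.70), Slc35e2 (-1.06) and Usp14 (-0.97), which were at 0.11, -0.18, -0.18, -0.35 and -0.14 in females. These values by sex are as fitted. Nfe2l2 was at -0.53 in females and -0.74 in males, Ache at 0.62 and 1.29, Abcb1b at -0.65 and -0.98, and Pde4b at -0.94 and -1.04. Proteasome subunits had medians of -0.11 in females and -0.36 in males in the slope-adjusted fit. There 0 and 22 of 33 were called lower, beside 0% and 1.87% of all genes.

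Levels in tumour-free muscle are given beside these values, and the difference of saline hosts from PBS uses the same saline libraries as the paclitaxel comparison, so the pair are not independent. Nfe2l2 lay from 5.06 to 5.71 (median 5.34) in PBS mice, Gpx3 from 7.12 to 8.24 (median 7.66), Pde4b from 5.51 to 6.81 (median 6.25) and Abcb1b from 2.27 to 3.39 (median 2.89). Saline hosts differed from PBS by 0.53 for Nfe2l2 (adjusted p = 1.57e-05), 1.48 for Gpx3 (1.98e-12), 0.81 for Pde4b (0.000187) and 1.01 for Abcb1b (5.78e-08). Ache lay from 4.76 to 5.77 (median 5.30) in PBS mice, Mybph from 6.46 to 9.23 (median 8.42) and Dusp29 from 3.39 to 5.71 (median 5.08), and saline hosts differed from PBS by -0.82 (adjusted p = 1.79e-05), -1.82 (6.46e-05) and -2.43 (1.86e-09). The paclitaxel medians of these 7 genes were 5.09, 8.53, 5.78, 2.94, 5.44, 8.87 and 4.18, in the order named. For Nqo1 the saline hosts differed from PBS by 0.16 (adjusted p = 0.158), and PBS mice lay from 3.62 to 4.52 (median 4.05), with a paclitaxel median of 3.73.

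The other drugs were given on the same schedule at the same share of their maximum tolerated dose. Against 5-fluorouracil limma called 43 genes higher (0.31%) and 1 lower with paclitaxel (0.318% in all), and with the slope as a covariate 104 (0.751%) and 5 (0.787% in all). Stat3 lay from 6.26 to 8.02 (median 7.23) with paclitaxel, from 5.95 to 6.98 (median 6.32) with 5-fluorouracil and from 6.05 to 7.06 (median 6.32) with cisplatin, and from 6.58 to 8.08 (median 7.68) with saline. The paclitaxel minus 5-fluorouracil difference of Stat3 was 0.84 (adjusted p = 0.0176), or 0.73 with the covariate (0.0103). From cisplatin Stat3 differed by 0.76 as fitted (adjusted p = 0.0217), a call lost with the covariate (0.55, adjusted p = 0.252). Serpina3n lay from 3.69 to 6.65 (median 4.93), from 1.87 to 5.11 (median 3.40) and from 2.52 to 4.74 (median 3.29) in the same order, with differences of 1.44 (adjusted p = 0.0495) from 5-fluorouracil and 1.59 (0.00916) from cisplatin. With the covariate these were 1.43 (0.0479) and 1.38 (0.0891), so the call against cisplatin was lost. For both genes the paclitaxel median was the highest of the 3 drugs and below that of saline. The 5 genes with the smallest p against 5-fluorouracil included the chemokine receptor Ackr1 (0.91, adjusted p = 0.0106, 0.90 with the covariate) and the nucleic acid sensor Sting1 (0.97, 0.0157, 0.94 with the covariate). Of 31 acute-phase genes 5 were higher than with 5-fluorouracil, and 7 with the covariate. Of 22 macrophage markers 3 were higher, and 7 with the covariate, with Cd68 at 1.08 (adjusted p = 0.0228, 0.97 with the covariate). The count of 44 ran from 11 without female paclitaxel replicate 2 to 125 without male paclitaxel replicate 4. It fell to 11 to 26 without female paclitaxel replicates 2, 3, 5 and 7, male paclitaxel replicates 1, 3 and 5, female 5-fluorouracil replicates 3, 4, 5 and 8 or male 5-fluorouracil replicates 1, 2, 3 and 6, and rose to 73 to 125 without female paclitaxel replicate 4, male paclitaxel replicates 2 and 4 or male 5-fluorouracil replicates 5 and 7.

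Against cisplatin 252 genes were higher (1.82%) and 56 lower with paclitaxel (2.22% in all). With the slope as a covariate 2 passed (0.0144%): 1 was higher (0.00722%), the ectonucleotidase Entpd1 (0.49, adjusted p = 0.0273), and 1 lower, the epoxide hydrolase Ephx1 (-0.77, adjusted p = 0.00680). Ephx1 lay from 3.47 to 4.50 (median 4.03) with paclitaxel, from 4.26 to 5.23 (median 4.80) with cisplatin and from 3.11 to 4.37 (median 3.94) with saline, a difference from cisplatin of -0.78 as fitted (adjusted p = 0.000905). Without the libraries of high slope 0 genes passed against cisplatin (1270 at an unadjusted p under 0.05). Of the 31 acute-phase genes 10 were higher than with cisplatin as fitted, of the 22 macrophage markers 8 and of the 38 matrix genes 11, and with the covariate 0 of each list. The myeloid transcription factor Spi1 was at 1.08 (adjusted p = 0.00916) as fitted and 0.72 (0.0579) with the covariate. The count of 308 ran from 77 to 4429. It was 77 to 197 without female paclitaxel replicates 2, 3, 6 and 7, male paclitaxel replicates 1, 3 and 5, female cisplatin replicates 1, 3, 5 and 6 or male cisplatin replicates 1, 2, 3, 5 and 7, and it was 557, 2549, 2481 and 4429 without female paclitaxel replicate 4, male paclitaxel replicates 4 and 6 and male cisplatin replicate 4.

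**Figure D5:**
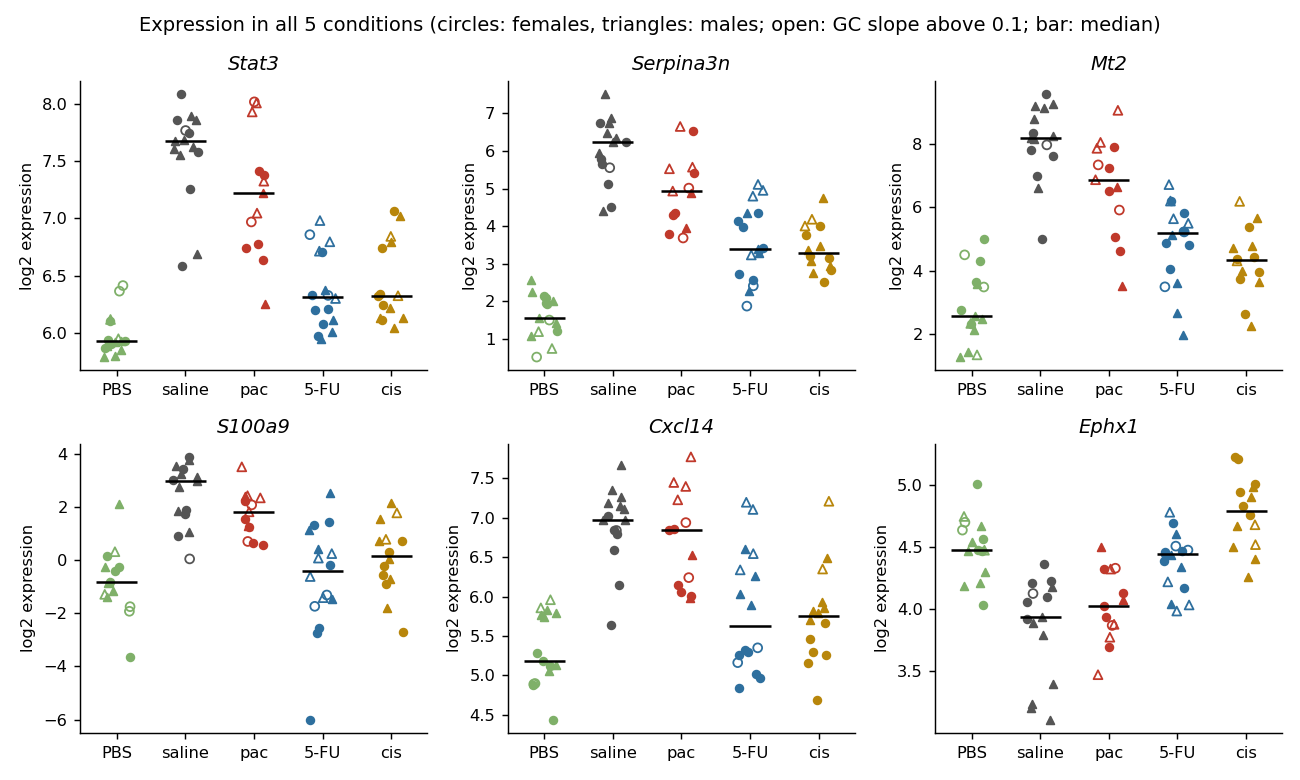
Log2 expression of 6 genes (y axis) in PBS mice and in tumour hosts given saline, paclitaxel (pac), 5-fluorouracil (5-FU) or cisplatin (cis), each point a library (circles female, triangles male, open symbols a GC slope above 0.1) and each bar a median. The Serpina3n medians run from 1.56 in PBS mice to 6.23 with saline, 4.93 with paclitaxel, 3.40 with 5-fluorouracil and 3.29 with cisplatin, and the points of the drugs overlap.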

How the data were processed

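RNA of gastrocnemius muscle was sequenced with paired ends on an Illumina instrument, per the labels' protocols. The deposited table holds 1 log2 expression value per gene and library, made by the authors. The submitters' processing notes list Salmon, fastp, FastQC, MultiQC, limma and edgeR, and GRCm39 as the build, with neither version nor role. How genes were filtered and libraries scaled is not given in the sources used here. The log2 scale has the form of an estimated count plus 0.5 over a scaled library size. Counts solved from it were within 0.02 of a whole number for 86.6 to 90.6% of values, so no count test was run, and depth, at 11.4 to 40.5 M (mega) estimated counts, limits low genes most. A read shared by near-identical genes is divided between them, and strand handling is not stated.

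Of 75 labelled samples 73 had a column and an unambiguous group. 1 female PBS library was not analysed here, and 1 library with conflicting labels was left out. The labels describe mice in groups and give 1 batch value throughout, so the tests see no more than the spread between samples. Linear models in limma 3.58.1 (R 4.3.3), with contrasts.fit and a trend in eBayes, fitted treatment with sex as a term to the 28 libraries, with 25 residual degrees of freedom, and 4 group means for the comparisons by sex and their difference. Tests were two-sided over 13856 genes, with a call at a Benjamini-Hochberg adjusted p under 0.05, and the fit was tested on simulated data. Library measures were tested by permutation within sex, with 100000 resamples for both sexes together and all labellings within 1 sex (Python 3.11.15, scipy 1.17.1). The GC slope is the regression of a library's deviations on standardised GC content of transcripts, adjusted for log2 length, over 10637 genes averaging 1 or more. GC content came from GENCODE vM21 (GRCm38), which matched 13791 gene IDs (99.5%) and named 288 of 311 genes without a symbol, and no gene coordinates of that build were set against the files.

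The comparison, gene lists and limit of 0.1 on the slope were chosen with earlier results of these data known. Named genes are the 10 largest rises and falls among called genes with a mean of at least 1, up to 4 members of each list by smallest p, a list of genes of microtubules, wasting and inflammation, and 5 genes by smallest p in each other comparison. Ckm, Cat, Cd79b, Ighm, Tfrc, Col6a6, Entpd1, Junb, Map1lc3b, Srxn1, Txn1 and the pseudogene Trmt112-ps2 fall outside that rule and were chosen after their values were seen. Alternatives were the slope or mitochondrial share as a covariate, leaving out the libraries of high slope, quantile normalization, a limit on low means, quality weights, a replicate block, all 73 libraries and leaving out each library.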

Additional observations from a re-analysis of the deposited data

Results flagged for a closer look

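Library measures and fixed genes were searched for a sample far from the rest of its group, and 8 of 144 group-wise tests found one, where chance alone gives about 1 in 20. Female saline replicate 7 had a GC slope of 0.4416 against 0.0565 in the next library, and its Stmn1 value was 0.6926 against 1.044. Without it the count of pooled calls was 3272. Female saline replicate 6 had Hdac6 at 3.796, the next library at 3.483. The mitochondrial share of male saline replicate 7 was 17.71%, the next being 10.74%. In male saline replicate 4, Stat3 was low at 6.687 (next 7.552), Mt2 low at 6.596 (next 8.146) and Pvalb, the calcium buffer of fast fibres, high at 12.93 (next 11.68), and the count of pooled calls was 745 without it. Ncam1 was at 3.248 in male saline replicate 8, the next library at 2.744. All 8 values lie in saline hosts. Fitted without male saline replicate 4 or female saline replicate 7, no direction of a named gene that had been called changed.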

How the results depend on the processing

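The 349 pooled calls became 0 on adding the GC slope as a covariate and 4 on dropping the libraries of high slope. They became 0 with the mitochondrial share as a covariate, 601 with quantile normalization, 715 among genes averaging 1 or more, and 2444, 1215 and 1268 with all 73 libraries as they are, with the slope as a covariate and without those of high slope. An adjusted p under 0.10 gave 2125. The last 3 of these settings, the 1215, 1268 and 2125, were added after the data had been seen. In females 0 calls became 9 with quality weights and 1, Nqo1, with all libraries without those of high slope. In males 3444 became 0 with the slope as a covariate, 1 on dropping the libraries of high slope, 7 with the mitochondrial share, and 482 and 722 with all libraries and the slope as a covariate or without those of high slope. The sex interaction went from 0 to 1 on dropping the libraries of high slope and to 3713 with quality weights. Against 5-fluorouracil 44 became 109 with the slope as a covariate, 11 on dropping the libraries of high slope, 15 among genes averaging 1 or more and 263 with quality weights, and against cisplatin 308 became 2, 0 and, with quality weights, 609. The cause of these changes was not tested, beyond the fewer libraries or genes some settings hold. Leaving out 1 library gave 0 to 3272 pooled calls, 0 to 0 in females, 1 to 4742 in males, 0 to 0 for the interaction, 11 to 125 against 5-fluorouracil, 77 to 4429 against cisplatin, and a GC slope difference of 0.165 to 0.237 and a mitochondrial share difference of -2.50 to -1.37.

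Of 244 named genes 69 were called, and 69 lost the call with the slope as a covariate, none with a change of sign. Tubb6, not called at 0.03, was called at -0.498 (adjusted p = 0.0369) with all libraries without those of high slope. Replicate numbers were not taken as pairs, since not every pair of same-numbered libraries had deviations that correlated above 0.1. In females they correlated at 0.0862 to 0.564, above 0.1 in 5 of 7 pairs, and 4 of 7 libraries correlated best with their own number. In males they correlated at -0.153 to 0.180, above 0.1 in 2 of 6 pairs, and 0 of 6 correlated best with their own number. With the number as a replicate block the pooled count was 310, or 0 with the slope added. It was 1 and 2 in females, 4023 and 0 in males, and 1 and 0 for the interaction. Another pseudocount and a count test were not run, since whole counts could not be recovered.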

Other observations

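Gene groups not described above had few calls in the 28 libraries. Of 77 cytosolic ribosomal proteins 1 fell, Rps6 (-0.46, adjusted p = 0.0485, -0.23 with the slope as a covariate), beside 1.26% of all genes, with a median of 0.04. The slope-adjusted fit called 9 lower and 0 higher, beside 4.93% and 3.84% of all genes. Its median was -0.17, so the sign of the median turned. Of 25 immediate early genes 0 passed, at a median of -0.19, and the slope-adjusted fit called 4 lower, the AP-1 subunit Junb among them (-1.73, adjusted p = 0.00699). Of 25 ATF4 stress response genes 0 passed, against 6 lower in the slope-adjusted fit, beside 4.93% of all genes. Of 44 interferon response genes 1 fell, beside 1.26% of all genes called lower. That gene was the immunity GTPase Irgm1 (-0.54, adjusted p = 0.0458, -0.32 with the slope as a covariate).

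Of 21 metallothionein, zinc and iron genes 0 passed in the 28 libraries. After slope adjustment 5 of the 21 were lower and 1 higher, beside 4.93% and 3.84% of all genes. The transferrin receptor Tfrc, which takes up iron, was at 1.01 as fitted (adjusted p = 0.130), 2.12 without the libraries of high slope (0.0461) and 1.60 slope-adjusted (0.00450). The zinc importer Slc39a14 was at -0.93 (adjusted p = 0.0525) and -0.86 slope-adjusted (0.00673). Of the endothelial, adipocyte, erythroid, tendon and skin markers 0 passed, and of 14 satellite cell markers 1 rose, Notch3, which is also on the pericyte list.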
